A study of Macaca mulatta with 304 samples.

Results

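Whole blood RNA at Day 30 after thoracic irradiation was compared with RNA drawn from the same animals 2 days before irradiation. The series holds 24 control and 280 irradiated samples of 28 animals, and the comparison used 48 of them, the Day 30 and the control sample of each of 24 animals. Samples were chosen and paired by the animal number in the labels. The other 4 animals had a Day 30 sample but no control. Among the alternatives, they entered only a fit over all samples and an unpaired fit of libraries with the same library number.

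The study followed rhesus macaques (Macaca mulatta) that received a single dose of radiation to the thorax, and it sequenced total RNA from whole blood at many days up to Day 270. Of the 24 animals, 12 received 9.8 Gy and 12 received 10.7 Gy, each with 6 males and 6 females. The animals were healthy adults of the Chinese sub-strain, between 3 and 5 years old at the start per the methods. Between the 2 draws every animal was irradiated, bled every 3 days until Day 30 and given an opioid analgesic (tramadol or buprenorphine) until shortly before Day 30. Rapid breathing was to be treated with dexamethasone, and the sources used here do not say which animals received it by Day 30. No sham-irradiated animals were analysed here, so time, repeated bleeding and drugs cannot be told apart from radiation. Values are given as CPM, a library's counts per 1e+06 counts after upper quartile scaling, and as log2 fold changes (Day 30 against control) with their standard errors.

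Red blood cells are made in the bone marrow from precursors that fill with hemoglobin, expel the nucleus and enter the blood as reticulocytes. A reticulocyte still carries messenger RNA and loses it as it matures, so most red cell messages in whole blood come from cells that have just left the marrow. The transcription factors GATA1 and KLF1 switch on the genes of hemoglobin, heme and the red cell membrane in these precursors, and the hormone erythropoietin acts on them through its receptor EPOR. Ribs, sternum and thoracic vertebrae, which hold active marrow, lie in or near a thoracic field, while much marrow lies outside it.

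The total count per library was 4096066 to 16238083 at Day 30 (median 6489934) and 6676757 to 14609879 in the controls (median 11697186). The number after the letter S in the library names was 0 (S0) in every one of the 24 Day 30 libraries, while 20 of the controls carried numbers of 19 and above and 4 were S0. The sources used here do not say what this number stands for, but the numbered controls were deeper (10341473 to 14609879) than the S0 controls (6676757 to 7153384). In 20 animals, therefore, day and library number changed together and cannot be told apart. The 4 animals with both libraries S0 (B2003 and B2005, males, and B2503 and B2504, females, all 10.7 Gy) give the values in which the number did not change with the day. No 2 libraries were identical, and no gene took more than 3.154% of a library. Leukocyte messages were present in both groups. The B cell gene MS4A1 had a median of 243.3 CPM in controls and 212.2 at Day 30. The T cell gene CD3E gave 391.4 and 373.6, and the monocyte gene CD14 gave 229.5 and 189.3. These 3 markers were picked as defining genes after their values had been seen, so their presence does not test the blood label.

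At Day 30, 811 of 13751 tested genes were called (5.90%), meaning that edgeR's quasi-likelihood test, blocked by animal, gave a p of 0.05 or less after Benjamini-Hochberg adjustment and that the fold reached 1.5. Of these, 628 were upregulated (4.57%) and 183 were downregulated (1.33%). A fold change of at least 2 was reached by 33% of the upregulated and by 9 of the downregulated genes. The direction was shared by at least 22 of the 24 animals in 260 of the 811 genes, by all 24 animals in 62 upregulated genes, and by all 24 in 7 downregulated genes. For no gene did the range of the 24 Day 30 libraries lie wholly outside the range of the 24 controls. Without the animal block 802 genes were called, and 693 of them were called with it in the same direction. Among the called genes that moved alike in at least 22 animals and had a named symbol and a mean of at least 1 CPM, 85% rose, and 35 genes fell.

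Of the 12 largest rises among these, 7 belonged to the red cell gene lists described further on. Those lists were written with earlier results of these data known. TSPO2, an erythroid member of the translocator protein family (chr4:128361880-128364912 in Mmul_10), ranged from 0.617 to 41 CPM in the controls (median 7.19) and from 2.06 to 369.3 CPM at Day 30 (median 26). The ranges overlapped, yet TSPO2 was higher at Day 30 in 24 of 24 animals, by 2.19 ± 0.185 on the log2 scale (adjusted p 1.04e-08). HDAC11, a histone deacetylase (chr2:144875316-144903615), ranged from 3.93 to 94.0 CPM in the controls (median 22.5) and from 30.2 to 393.5 CPM at Day 30 (median 96.7). It too rose in every animal, by 2.07 ± 0.198 (adjusted p 2.52e-08). SLC4A1, the band 3 anion exchanger of the red cell membrane (chr16:55510407-55531543), ranged from 53.6 to 2480 CPM before irradiation (median 669) and from 233.6 to 14590 CPM at Day 30 (median 2036). Its rise of 1.91 ± 0.233 was also present in 24 of 24 animals. The plot of 8 genes by animal shows these paired values.

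**Figure D1:**
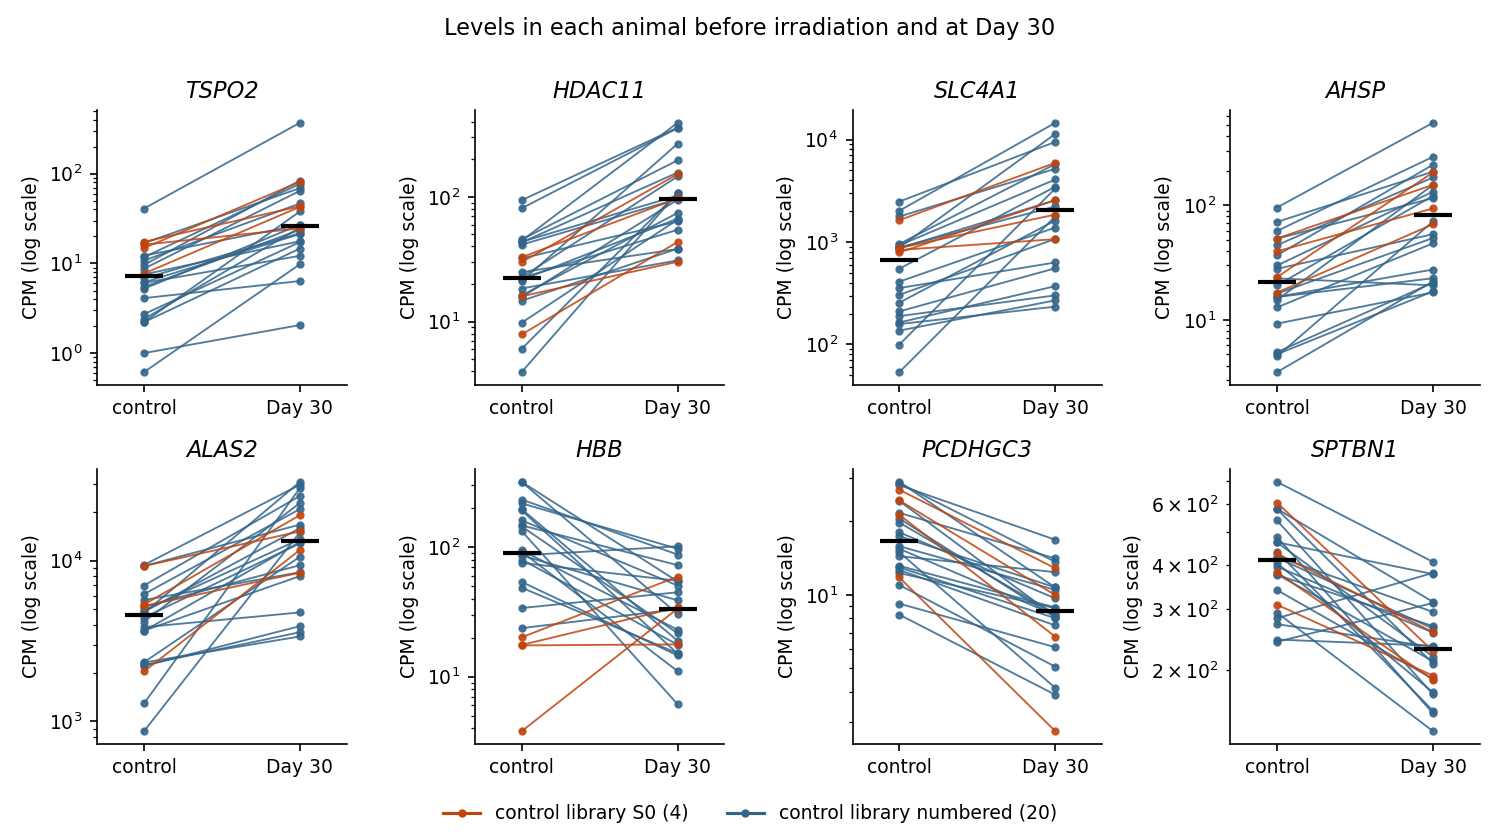
CPM (log axis) of 8 genes in the control and the Day 30 library of each of 24 animals, with a line joining the libraries of an animal. Orange lines are the 4 animals whose control library is S0, blue lines the 20 with a numbered control, and black bars group medians. TSPO2 goes from a median of 7.19 to 26 CPM and rises in all animals, while HBB rises in the 4 orange animals and falls in most blue ones.

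ADD2, which encodes beta-adducin of the membrane skeleton, rose by 2.0 ± 0.227, and TRIM10 and TRIM58, ubiquitin ligases of maturing red cells, rose by 1.99 ± 0.180 and 1.92 ± 0.246, each in 24 of 24 animals. PKLR, the pyruvate kinase of red cells and liver, rose by 2.12 ± 0.228 and FN3K, an enzyme that removes sugar from glycated proteins, by 2.0 ± 0.235, each in 23 animals. AHSP, the chaperone of alpha-globin, went from a median of 21.5 CPM (3.51 to 95.6) to 83.1 CPM (17.4 to 524.4) and rose in 23 animals by 1.85 ± 0.181. The glycine transporter gene SLC6A9 rose in all 24 animals by 1.78 ± 0.233. The remaining genes of this group were PRSS47, a predicted serine protease (2.12 ± 0.228), and MPP2, a membrane scaffold gene (2.04 ± 0.244), each higher in 23 animals.

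The red cell genes were described as 3 lists with 82 genes in the count table, of which 78 were tested. The lists were written with earlier results of these data known. They include genes that the study selected on this series, such as DCAF12 and NUDT4. Their shares of called genes are therefore not independent evidence of a rise. In the comparison of Day 30 with control, 61 of the 78 rose and 2 fell, against 4.57% and 1.33% of all tested genes. The median log2 fold change of the 78 was 0.98, against -0.03 over all tested genes, and 72 of the 78 had a value above 0. Since these are bulk samples, more reticulocytes and more RNA per reticulocyte cannot be told apart. Summed over the 82 genes, the level was 8025 to 40650 CPM in controls (median 19320) and 13670 to 112400 CPM at Day 30 (median 45190). As a share of the raw counts the same genes took 0.915% to 3.48% of a control library (median 2.0%) and 1.59% to 8.54% of a Day 30 library (median 4.56%), and the share was higher at Day 30 in 24 of 24 animals. In the 4 Day 30 libraries that had no control, the share was 3.73% to 6.75%, all above the highest control.

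Among the red cell membrane genes, 21 of 22 tested rose and none fell. After TSPO2, ADD2 and SLC4A1 the strongest was DMTN, the dematin gene, whose product bundles actin under the membrane (1.68 ± 0.217, 24 animals). EPB42, the band 4.2 gene, rose by 1.62 ± 0.201, also in 24 animals. The gene that was not called was SLC2A1, the glucose transporter, with 0.50 ± 0.128. EPB42 and SLC2A1, and those genes of the next paragraphs that fall outside the naming rule, were named after their values had been seen.

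Of the regulators and maturation genes, 30 of 35 tested rose and none fell. KLF1 rose by 1.62 ± 0.239 in 22 animals, GATA1 by 1.03 ± 0.195 in 19, and EPOR by 1.53 ± 0.196 in all 24. HDAC11, TRIM10 and TRIM58 led this list, followed by SELENBP1, a selenium-binding protein gene of late red cell precursors, with 1.77 ± 0.215. BCL2L1, whose product keeps late precursors alive, rose by 1.40 ± 0.194, and BNIP3L, which clears mitochondria from reticulocytes, by 1.39 ± 0.140. The genes that were not called were CARM1, SIAH2, TFDP1, GFI1B and OSBP2, with values from -0.31 (CARM1) to 0.57 (OSBP2).

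The heme and globin list was mixed, with 10 of 21 tested genes higher and 2 lower. ALAS2, the enzyme that starts heme synthesis in red cells, was 866.3 to 9399 CPM in controls (median 4568) and 3371 to 30940 CPM at Day 30 (median 13330). It rose in 24 of 24 animals, by 1.60 ± 0.209 (adjusted p 1.83e-06). FECH, the last enzyme of the pathway, rose by 1.28 ± 0.184, while CPOX (-0.12 ± 0.073) and PPOX (0.46 ± 0.111) were not called.

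The 2 genes that fell were the adult globins. HBA went from a median of 19.9 CPM (1.60 to 71.3) to 6.52 CPM (0.696 to 29.6), and HBB from 89.5 CPM (3.79 to 319.8) to 33.4 CPM (6.12 to 101.6). The fold changes were -1.39 ± 0.338 for HBA (lower in 19 animals, adjusted p 0.00268) and -1.36 ± 0.349 for HBB (lower in 17, adjusted p 0.0044). The libraries were made with a depletion kit (Ribo-Zero Plus) that is designed to remove adult globin messages together with ribosomal RNA. How far it removed globin messages in these libraries was not tested. The direction also differed by library number. In the 4 S0 animals HBB was 17.4, 17.6, 20.1 and 3.79 CPM in the controls of B2003, B2005, B2503 and B2504, and 17.8, 34.3, 59.3 and 33.6 CPM at Day 30. HBB was thus higher in all 4 animals (1.38, adjusted p 0.0249), against -1.83 in the 20 animals with numbered controls, and HBA gave 1.09 (adjusted p 0.14) and -1.77. Counts of HBA and HBB are uncertain in addition because near-identical gene copies share reads. HBM and HBQ1, globins outside the adult pair, gave 0.96 ± 0.242 (called) and 0.32 ± 0.216 (not called).

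**Figure D2:**
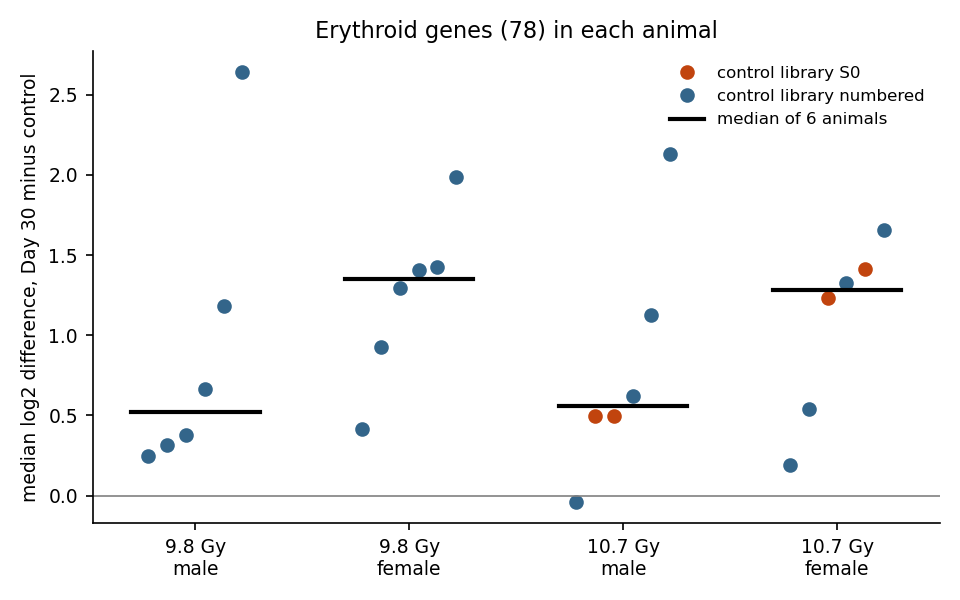
Median log2 difference (Day 30 minus control) of the 78 tested red cell genes in each of 24 animals, in 4 groups of 6 by dose and sex. Orange points are the 4 animals with S0 controls and blue points those with numbered controls; 23 of 24 animals lie above 0, from -0.04 to 2.64.

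Animals differed widely in the size of the change. Taken per animal, the median log2 difference of the 78 red cell genes ran from -0.04 (B2004) to 2.64 (B1001), with a median of 1.03, and was above 0 in 23 of 24 animals. The 9.8 Gy animals ranged from 0.25 to 2.64 (median 1.06) and the 10.7 Gy animals from -0.04 to 2.13 (median 0.88). Males ranged from -0.04 to 2.64 (median 0.56) and females from 0.19 to 1.98 (median 1.31). The ranges overlapped for both divisions, and the differences of these list medians were not tested.

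The promoters of the 78 tested red cell genes, called or not, and of the tested genes were inspected for 2 sequence motifs that red cell factors are known to bind. A window of 300 bases, 250 before and 50 after the RefSeq start of the gene in Mmul_10, was searched on both strands for AGATAA or TGATAA, forms of the GATA motif, and for CCNCNCCC, a form of the CACCC motif of KLF1. Of the 78 red cell genes, 24 held a GATA motif in the window (30.8%), against 1616 of 13633 tested genes (11.9%). The CACCC motif was found in 52 (66.7%) against 8941 (65.6%), and both motifs in 14 (17.9%) against 694 (5.09%). The window below is that of AHSP, shown as a named rise of the red cell lists that holds a GATA motif, written 5′ to 3′ on the strand of the gene, with motif matches of either strand in capitals. A match is a run of letters and not a measured binding site.
AHSP, chr20:28978662-28978961, plus strand: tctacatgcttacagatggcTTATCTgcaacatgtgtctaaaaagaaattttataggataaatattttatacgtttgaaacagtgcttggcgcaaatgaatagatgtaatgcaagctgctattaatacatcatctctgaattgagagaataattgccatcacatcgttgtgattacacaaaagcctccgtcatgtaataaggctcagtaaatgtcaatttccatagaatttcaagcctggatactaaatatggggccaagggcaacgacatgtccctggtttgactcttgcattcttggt

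In AHSP the GATA letters appear as TTATCT, the reverse complement of AGATAA, and the window holds no match of the CACCC motif. Whether the window of TSPO2, the largest rise, holds these letters is not reported here.

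The 20 animals with numbered controls and the 4 S0 animals share no sample and were compared as separate sets. In the 20 animals 850 genes were called (6.18%), and in the 4 animals 879 (6.39%), with 633 higher (4.60%) and 246 lower (1.79%). The share from 4 animals depended on each of them: it was 22.1% without B2503, 2.71% without B2003, 2.60% without B2005 and 1.42% without B2504, and an unblocked fit called 1 gene. Of 630 genes higher in the 20 animals, 542 (86%) also had a value above 0 in the 4 animals, and the genes called higher in both sets made up 34.1% of the 630 and 34% of the 633. Of 220 genes lower in the 20 animals, 158 (71.8%) had a value below 0 in the 4, and 21 were called lower there (9.5% of the 220 and 8.5% of the 246). Over all tested genes 60.7% had the same sign in both sets. Calls in the opposite direction numbered 1 among the 630 and 4 among the 220.

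The red cell genes rose in both sets. In the 4 S0 animals 44 of the 78 rose and none fell (median 1.03, 73 above 0), and in the 20 animals 62 rose and 2 fell (median 0.99). Leaving out 1 of the 4 animals gave 19 (without B2504), 39 (without B2003 and, separately, without B2005) and 50 (without B2503) rises, with a median from 0.84 to 1.14. The share of the raw counts taken by all 82 listed genes was 1.32% to 2.87% in the 4 S0 controls and 3.12% to 6.64% in the Day 30 libraries of the same animals, ranges that did not overlap. With the library number as a covariate over all 24 animals, a fit whose day effect rests on the same 4 animals, 13 red cell genes rose and none fell (median 1.03). TSPO2 was 17.4, 16.2, 14.9 and 7.73 CPM in the controls of B2003, B2005, B2503 and B2504, and 43.4, 24.6, 81.3 and 42.8 CPM at Day 30. Each animal rose, and the 4 Day 30 values all lay above the 4 controls (1.73 ± 0.291, adjusted p 0.00261 by edgeR). HDAC11 gave 1.85 ± 0.254, TRIM10 2.01 and AHSP 1.97 in the 4 animals, against 2.12, 1.99 and 1.83 in the 20. PRSS47 was the named rise with the largest gap, at 0.74 in the 4 animals (adjusted p 0.193) against 2.29. The difference between S0 and numbered controls within the 10.7 Gy animals (4 against 8) was tested by the interaction and passed for 1 of 13751 genes, LOC100427218, which is in none of the red cell lists. DESeq2 called 665 genes (4.84%) for this difference, edgeR without a filter called 90, and 2967 genes had an unadjusted p below 0.05 by edgeR. On simulated counts of these 12 animals edgeR recovered 32 of 200 genes changed by a fold of 2, so the 1 call does not show that the library sets changed alike.

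**Figure D3:**
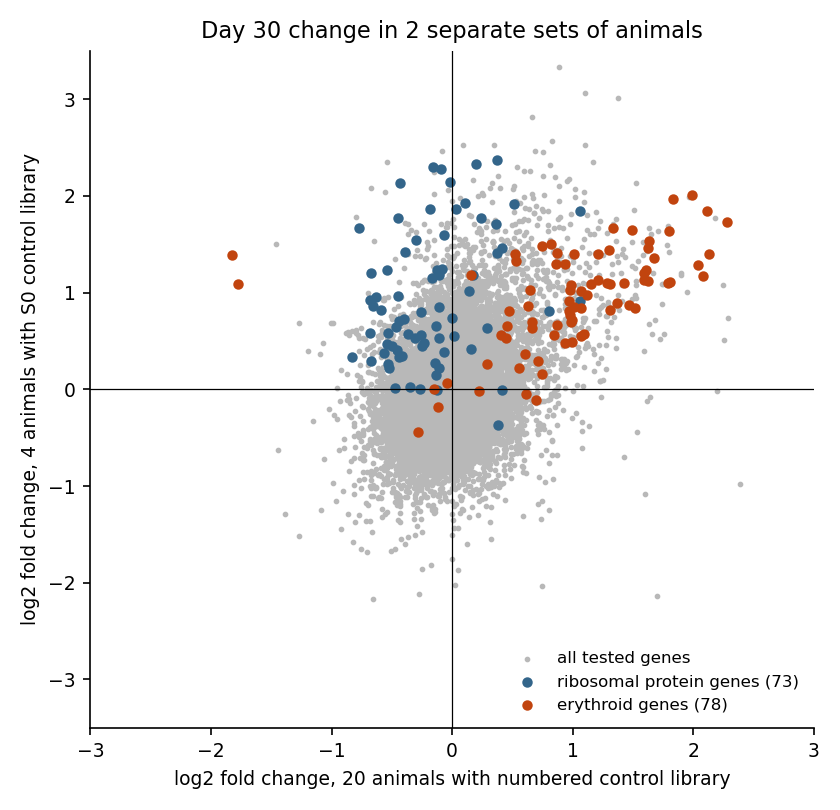
Log2 fold change of each of 13751 tested genes at Day 30 in the 20 animals with numbered controls (x axis) and in the 4 animals with S0 controls (y axis), which share no sample. The 78 red cell genes lie mostly above 0 on both axes (medians 0.99 and 1.03), while the 73 ribosomal protein genes have medians of -0.18 and 0.80.

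The ribosomal protein genes had medians of opposite sign in the 2 sets. The 73 tested genes had a median of -0.07 over the 24 animals (4 higher and 1 lower), of 0.80 in the 4 S0 animals (36 higher, none lower) and of -0.18 in the 20 others (3 higher and 6 lower). Taken per animal, the list median was above 0 in all 4, and it ran from -1.82 to 1.29 in the 20, 9 of which lay above 0. By sex, 4 of 12 males (median -0.39) and 9 of 12 females (median 0.26) had a list median above 0, a difference that was not tested. RPL17 gave 2.04 in the 4 animals and -0.55 in the 20, and the nuclear-encoded respiratory chain gene COX7B gave 3.07 and 1.10. These short transcripts also differ in base composition, and the fold change correlated across genes with the GC content of the transcript in the S0 set (Spearman's rho -0.47 over 13751 genes, which are not independent replicates) and hardly in the numbered set (rho -0.004). The median change in the S0 set went from 0.31 in the genes lowest in GC to -0.27 in those highest, when the genes were divided into 4 equal groups. With GC and length taken into the model as an offset, added after the data were seen, the ribosomal protein genes in the S0 set had a median of 0.50 with 23 higher and 1 lower. In the same fit 53 of 78 red cell genes rose in the 4 animals, and over the 24 animals 61 rose and 2 fell as before. Ribosomal protein genes share reads with many processed copies, so their counts are uncertain.

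The 12 largest falls that at least 22 animals shared were between 0.73 and 1.01 on the log2 scale. PCDHGC3, a protocadherin of the gamma cluster, went from a median of 16.6 CPM (8.29 to 29) to 8.58 CPM (2.76 to 16.8). The ranges overlapped, and it fell in 24 of 24 animals, with a log2 fold change of -1.01 ± 0.093 (adjusted p 1.66e-08) and of -1.44 in the 4 S0 animals. PCDHGC5 of the same cluster gave -0.91 ± 0.154 in 22 animals. Genes of this cluster share their last exons, so their counts are not independent and how the reads were divided is uncertain.

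SPTBN1, the spectrin beta chain of cells other than red cells, went from a median of 413.4 CPM (241.5 to 694.6) to 230.3 CPM (133.8 to 409.4). It fell in 22 animals (-0.80 ± 0.108, and -0.94 in the S0 animals). GPRASP2, a sorting protein of G protein-coupled receptors, and EDAR, the ectodysplasin receptor, fell in all 24 animals by 0.82 and 0.73 on the log2 scale. DENND2A (-0.89), KIAA1549 (-0.86) and PRAG1 (-0.76) fell in 22, 22 and 23 animals. RBM20 (-0.93), KCNIP3 (-0.87), TSSK6 (-0.85) and CTNNA3 (-0.76) had medians between 1.16 and 2.11 CPM in the controls, so their values rest on few reads per library. The reverse strand could contribute to any of these counts, since the sources used here do not say whether counting used the strand of the reads.

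Few lymphocyte genes were called over the 24 animals, where 4.57% of all tested genes were higher and 1.33% lower. Of 28 B cell genes tested none rose and 1 fell, and 23 of the 28 had a value below 0 (median -0.24). CD79B, a chain of the B cell receptor, was the one called, going from a median of 230.8 CPM (54 to 406.2) to 114.7 CPM (27.6 to 375.4) and lower in 20 animals (-0.79 ± 0.140). In the 4 S0 animals, however, its change was 0.01, and its partner CD79A was not called (-0.52 ± 0.112). Among 20 T cell receptor genes none was called (median -0.16), and UBASH3A (-0.45 ± 0.071) and SKAP1 (-0.31 ± 0.057) had an adjusted p below the limit without reaching the fold limit. Of 16 naive lymphocyte genes 1 rose, the water channel gene AQP3 (0.70 ± 0.173, but -0.03 in the S0 animals), and 14 had a value below 0 (median -0.33). None of the plasma cell, cytotoxic lymphocyte, or checkpoint and regulatory T cell genes was called, and GZMB, which encodes granzyme B, gave -0.48 ± 0.110. The 4 S0 animals gave more calls in these lists, against 4.60% of all genes higher and 1.79% lower in that set. T cell receptor genes had a median of -0.51 there with 2 lower, and naive lymphocyte genes one of -0.57 with 2 lower. Cytotoxic lymphocyte genes gave 3 rises and 2 falls of 25, and plasma cell genes 2 rises of 17.

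Myeloid genes gave a small group of rises. Of 24 monocyte genes 5 rose and none fell (median 0.26), against 4.57% of all tested genes higher, and in the 4 S0 animals 6 rose and 1 fell (median 0.08). Among them KLF4, a transcription factor of monocyte maturation, rose by 0.94 ± 0.117, CLEC7A, the beta-glucan receptor, by 0.91 ± 0.134, MS4A7 by 0.77 ± 0.147, and the protease gene CTSB by 0.68 ± 0.113. CD14, the classical monocyte marker, was not called (-0.36 ± 0.149). CD300H, an activating receptor of the CD300 family, rose in all 24 animals, from a median of 18.1 CPM (4.52 to 55.9) to 40 CPM (15.8 to 102.2; 1.25 ± 0.128). Together with CLEC7A, TREM2 and CD300E it made 4 rises and no falls among 20 tested genes of myeloid lectin and other receptors. CLEC7A was in the monocyte list as well. In the 4 S0 animals KLF4 gave 0.39 (not called), CLEC7A 1.06 (called) and CD300H 0.75 (not called, adjusted p 0.0529).

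In the neutrophil lists 1 of 19 granule genes (LCN2, 0.75 ± 0.218) and 1 of 21 mature neutrophil genes (SLC22A4, 0.89 ± 0.204) were higher, and none was lower, a share near the 4.57% of all tested genes. Among the S0 animals 3 granule genes were higher (median 0.74, against 0.25 over the 24). Of 12 eosinophil genes ALOX15 rose (0.87 ± 0.171) and of 9 basophil and mast cell genes MS4A2, a chain of the IgE receptor, fell (-0.70 ± 0.192). Among the platelet and megakaryocyte genes SPARC (0.64 ± 0.216) and GNG11 (0.61 ± 0.214) rose, calls that were lost when 1 animal was left out (any of 2 animals for SPARC and any of 9 for GNG11), and the platelet glycoprotein genes GP9 (0.02 ± 0.205) and ITGA2B (-0.07 ± 0.219) were not called.

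Of 34 p53 targets tested 2 rose and none fell (median -0.05), a share near the 4.57% of all tested genes. APOBEC3H, a cytidine deaminase gene, went from a median of 32 CPM (21 to 79.2) to 77.7 CPM (21.3 to 222.5), and it was higher in 23 of 24 animals (1.03 ± 0.118, and 0.93 in the S0 animals). GADD45A, a stress response gene, rose by 0.65 ± 0.134 in 18 animals. Immediate early genes, which respond within minutes to stimulation of cells, gave 5 rises of 27: IER3 (1.23 ± 0.295), ATF3 (0.98 ± 0.110, 24 animals), FOSB (0.82 ± 0.112), PPP1R15A (0.74 ± 0.089) and EGR1 (0.61 ± 0.206). In the 4 S0 animals ATF3 was called (1.12) and the other 4 were not. Of 47 interferon response genes 3 rose, CMPK2 (1.11 ± 0.197), RSAD2 (1.03 ± 0.179) and IFIT1 (0.97 ± 0.210), and in the S0 animals 7 did (median 0.42). Over the 24 animals the interferon count was near the share of all genes as well (median 0.17). IFIT1 was 21, 69.8, 59.5 and 23 CPM in the S0 controls of B2003, B2005, B2503 and B2504 and 84.4, 200.8, 121.5 and 514.5 CPM at Day 30. Glucocorticoid-responsive genes gave no call among 26, with FKBP5 at -0.26 ± 0.068 and KLF9 at -0.36 ± 0.109.

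Quantitative PCR genes of the study formed another list, with 6 genes tested here. DCAF12, which encodes a subunit of a ubiquitin ligase, went from a median of 233.1 CPM (101.2 to 586.4) to 633.6 CPM (244.4 to 2023), and DCUN1D1, whose product promotes neddylation, from a range of 67.6 to 255.4 CPM to a range of 101.8 to 919.4 CPM. Both rose in 24 of 24 animals, by 1.55 ± 0.146 and 1.24 ± 0.128, and both are in the red cell list as well. C15H9orf78 rose in 20 animals (0.63 ± 0.143), a call that was lost without any 1 of 4 animals. LPL (0.52 ± 0.104), C1QB (0.11 ± 0.160) and JADE2 (-0.31 ± 0.078) were not called. The study chose these genes on this series, so their rises are not independent evidence of a direction. Of 10 genes tested from the study's pooled dose model 2 rose, against 4.57% of all tested genes. NUDT4, a diphosphoinositol phosphatase gene that is in the red cell list as well, rose in all 24 animals (0.96 ± 0.1), and KLF4 rose as given above. The dose model was built on this series too, so these 2 rises are not independent evidence either.

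The remaining lists are read against the same 4.57% of all genes higher and 1.33% lower. DNA replication and mitosis genes gave 2 rises of 40, near that share (NUSAP1 0.71 ± 0.123, BUB1B 0.67 ± 0.179), and DNA repair genes 2 rises (NBN 0.88 ± 0.194, BRIP1 0.87 ± 0.154) and 1 fall (XRCC6 -0.67 ± 0.063, but -0.33 and not called in the S0 animals). Respiratory chain genes gave 7 rises and 2 falls of 54, led by COX7B (1.43 ± 0.345) and ATP5F1E (1.18 ± 0.292). The chemokine receptor list gave 2 rises, both of atypical receptors, ACKR1 (the Duffy antigen, also found on red cells, 1.60 ± 0.218) and ACKR2 (1.29 ± 0.199). Single calls were B2M, the light chain of class I molecules (0.69 ± 0.191), IL18 (0.70 ± 0.123), PSMB6 (0.68 ± 0.098) and DNAJA1 (0.68 ± 0.132) among the rises, and the clock gene NR1D1 (-0.60 ± 0.135) and LTBP3 (-0.68 ± 0.160) among the falls, and the call of NR1D1 was lost without any 1 of 8 animals. Complement, hypoxia and glycolysis, and SOCS and STAT genes gave no call.

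**Figure D4:**
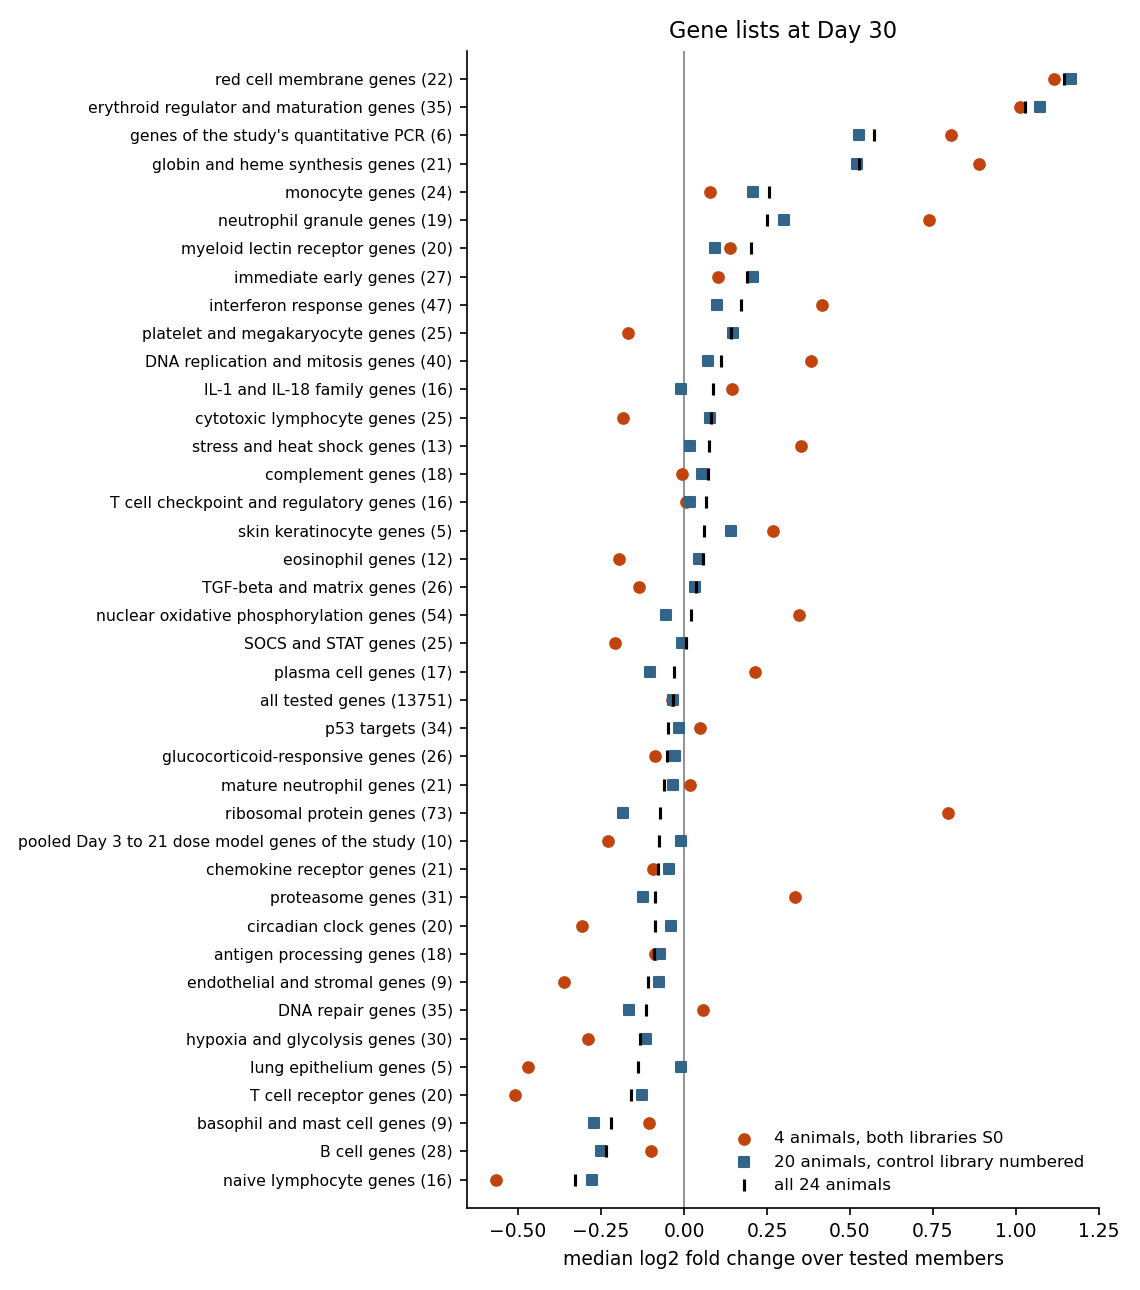
Median log2 fold change (x axis, Day 30 against control) of 39 gene lists and of all tested genes, in the 4 S0 animals, the 20 animals with numbered controls and all 24. The 3 red cell lists stand at 0.53 to 1.15 over all animals, and most other lists lie closer to 0, while ribosomal protein genes stand at 0.80 in the S0 animals and at -0.18 in the others.

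Genes of other cell types were inspected for their summed levels. Of 16 lung epithelium genes in the table, SFTPA1 and CLDN18 had no count in any of the 48 libraries, and the summed level of the list was 107.7 to 263.8 CPM in controls and 117.8 to 279.3 CPM at Day 30. Endothelial and stromal genes summed to 356.2 to 745.8 CPM and 298.4 to 684 CPM, with TIE1, an endothelial receptor, lower (-0.60 ± 0.115, a call lost without any 1 of 6 animals). Keratinocyte genes, with KRT1, DSG3 and KRTDAP at 0 throughout, summed to 9.34 to 24.7 CPM and 8.57 to 25.7 CPM, and DSC3 was called higher (0.88 ± 0.244). The ranges of the 2 days overlapped for each of these lists.

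The 2 doses were compared by the interaction of day and dose. No gene passed at an adjusted p of 0.05 by edgeR or by DESeq2, with 404 and 502 genes at an unadjusted p below 0.05. TSPO2 rose by 2.46 ± 0.235 after 9.8 Gy and by 1.90 ± 0.242 after 10.7 Gy, a difference of -0.56 ± 0.353 (adjusted p 0.9999). For HDAC11 the difference was -0.23 ± 0.392 and for ALAS2 -0.23 ± 0.417. Fitted separately, 56 of the 78 red cell genes rose and 2 fell after 9.8 Gy, and 62 rose and none fell after 10.7 Gy. The 4 S0 animals were all in the 10.7 Gy group.

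The change differed between males and females in 4 of 13751 genes (0.0291%) by edgeR, all lower in males, whereas DESeq2 called 519 genes, 162 higher and 357 lower in males. ALKBH7, a mitochondrial dioxygenase gene, changed by -2.34 to -0.28 in the 12 males (median -0.98) and by -0.92 to 1.32 in the 12 females (median 0.33), a difference of -1.48 ± 0.273 (adjusted p 0.0282). EIF4EBP1, a repressor of translation, gave -1.21 ± 0.206, TIMM13, an import factor of mitochondria, -1.16 ± 0.211, and MRPS12, a mitochondrial ribosomal protein gene named after its value was seen, -0.96 ± 0.176. For all 4 genes the ranges of the sexes overlapped. The 4 transcripts have a GC content of 60.1% to 64.7% and lengths of 1024 to 1720 bases, against medians of 49.9% and 3064 over the tested genes. Across genes the male minus female difference correlated with GC content (Spearman's rho -0.67), and with GC and length as an offset no gene passed the threshold (1582 at an unadjusted p below 0.05, against 2526 without the offset). The direction of the 4 genes held with the offset, at -1.17 for ALKBH7 and -0.73 for EIF4EBP1 (adjusted p 0.0737 each), -0.71 for TIMM13 and -0.58 for MRPS12. None of the 78 red cell genes differed between the sexes at an adjusted p of 0.05. Fitted alone, males had 532 genes higher and 499 lower, and females 665 higher and 146 lower.

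**Figure D5:**
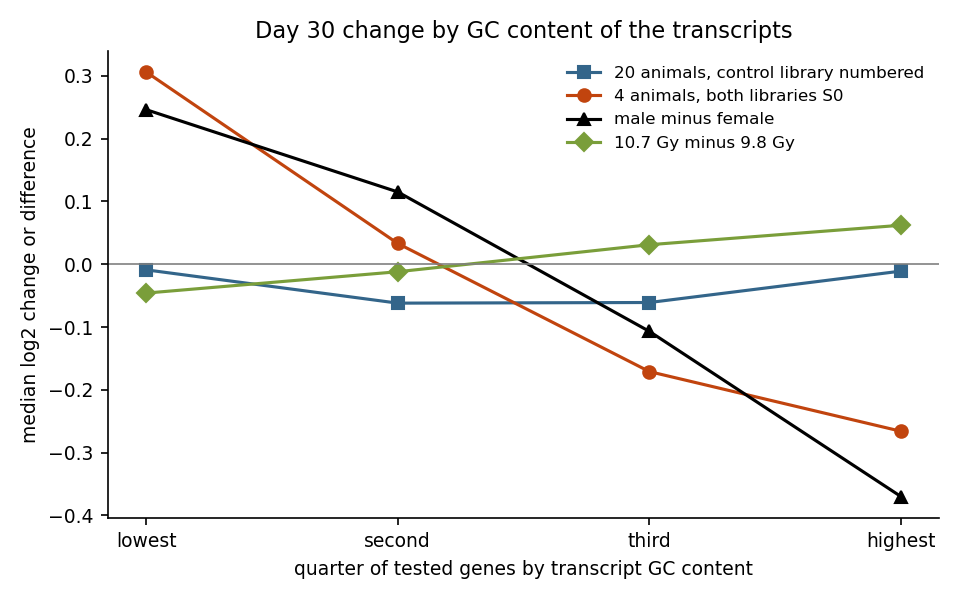
Median log2 change (y axis) of the tested genes in 4 equal groups of transcript GC content (x axis, lowest to highest) for the 20 animals with numbered controls, the 4 S0 animals, the male minus female difference and the 10.7 minus 9.8 Gy difference. The S0 line falls from 0.31 to -0.27 and the sex line from 0.25 to -0.37, while the numbered line stays between -0.06 and -0.01.

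Day 30 was also set against the neighbouring sampling days of the same 24 animals, comparisons that use no control. Against Day 21, 388 genes were higher at Day 30 (2.82%) and 486 lower (3.53%). Of the 78 red cell genes, 0 were higher and 8 were lower, with a median of -0.18. TSPO2 was 25.7 CPM at the median of Day 21 and 26 CPM at Day 30, and its difference was 0.26 ± 0.191. HBB stood far apart from these, with a median of 904.8 CPM at Day 21 (20.7 to 3578), and was lower at Day 30 by 4.66 ± 0.458 on the log2 scale in 22 animals, as was HBA by 4.64 ± 0.383 in 23.

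Only 7 of the 24 Day 21 libraries were S0. In those 7 animals 11 genes were called (0.0800%), none of them a red cell gene, and the median of the red cell genes was -0.29. HBB and HBA gave -2.43 ± 0.938 and -3.81 ± 0.894 there, without passing the threshold. PDZD3, a scaffold protein gene, was higher at Day 30 in 24 of 24 animals (1.46 ± 0.134, and 1.37 in the 7), and TPPP3, a tubulin-binding protein gene, in 24 (1.24 ± 0.159, and 1.16 in the 7). AUP1 (1.46 ± 0.246) and the neutrophil surface gene CD177 (1.27 ± 0.172) were higher in 22 animals each, with CD177 at 0.61 in the 7. The histone gene HIST1H2BM was lower by 1.34 ± 0.171 and RPL17 by 1.20 ± 0.192, in 22 animals each, with -0.59 and -0.44 in the 7. Neutrophil granule genes were higher at Day 30 in 8 of 19 and mature neutrophil genes in 5 of 21, while 34 of 73 ribosomal protein genes and 9 of 47 interferon genes were lower, and none of these calls was present in the 7 animals.

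Against Day 40, 466 genes were higher at Day 30 (3.39%) and 216 lower (1.57%). Red cell genes made up 46 of the higher and 2 of the lower genes (median 0.68). TSPO2 had a median of 7.63 CPM at Day 40 (0.537 to 84.4), close to its control median of 7.19, and was higher at Day 30 by 1.93 ± 0.283 in 22 animals. HDAC11 was higher by 1.71 ± 0.3 and TRIM10 by 1.56 ± 0.278, also in 22 animals each. One Day 40 library, that of B2007, stood apart: red cell genes took 23% of its counts, against 0.989% to 5.43% in the other 23. Without B2007, a setting added after the data were seen, 539 genes were higher and 264 lower, and 53 red cell genes were higher and 2 lower. In the 13 animals whose Day 40 library was S0, 418 genes were higher (3.04%) and 359 lower (2.61%), with 42 red cell genes higher, 2 lower and a median of 0.69.

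HBA and HBB were again lower at Day 30 than at Day 40, by 3.23 ± 0.518 and 3.66 ± 0.534 on the log2 scale in 20 animals each, and they were lower in the 13 S0 animals as well (-2.82 and -3.13). TMEM25, a membrane protein gene, was higher at Day 30 than at Day 40 by 1.58 ± 0.238. TIMP1, an inhibitor of matrix proteases, was lower by 1.02 ± 0.103 in 24 of 24 animals, and MT2A, a metallothionein gene, by 1.18 ± 0.197 in 22. FBP1, an enzyme of glucose synthesis, was lower by 1.11 ± 0.217 in 23 and HIST1H2BM by 1.23 ± 0.172 in 22. The calprotectin genes S100A8 (-1.30 ± 0.246) and S100A9 (-1.55 ± 0.234) were lower at Day 30, as 2 of 3 mature neutrophil genes called, and in the 13 S0 animals 12 mature neutrophil genes were lower.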

How the data were processed

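The authors depleted ribosomal RNA (Ribo-Zero Plus), made stranded libraries, trimmed reads with cutadapt 2.10, aligned them to Mmul_10 with STAR 2.7.6a and counted genes with Subread 2.0.1, versions per the labels' processing notes. Whether counting used the strand is not given in the sources used here. The deposited table holds raw counts of 21070 genes, and a second deposited table holds the authors' upper-quartile-scaled log2 values of 16730 genes, used only as an alternative with limma 3.58.1 (the lowest log2 value is -2.2356). Both tables have a column for each sample.

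Genes with at least 3 counts in 80% of the 304 samples were tested (13751). Counts of Day 30 and control libraries of 24 animals were fitted with edgeR 4.0.16 in R 4.3.3 (upper quartile scaling, animal as block, Benjamini-Hochberg adjustment over all tested genes, fold limit 1.5). Dose, sex and library differences are interactions with day, called at an adjusted p of 0.05 without a fold limit. Errors are standard errors. CPM were scaled over the control, Day 21, Day 30 and Day 40 libraries. Replicates are separate animals. The block follows the animal numbers in the labels: deviations from the day means of the 2 libraries of an animal had a median correlation of 0.345, against -0.011 between animals, and 14 of 24 Day 30 libraries correlated best with their own control. Tables and figures were made in Python 3.11.15 (Matplotlib 3.10.9).

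Named genes were the 12 largest rises and falls among called genes that at least 22 animals shared, with a mean of 1 CPM and a named symbol, up to 4 called members of each list (the 2 with the smallest p where none was called), up to 3 genes each way for the dose, sex and library differences, 4 each way for Day 21 and Day 40, and the genes of the quantitative PCR. Members and lists were chosen with earlier results of these data known. Of the called genes 131 have only LOC symbols and were not named, some other genes and promoter sequences are not reported here, and the list of mitochondrial genome genes had no gene in the count table. Depth, 4096066 to 16238083 counts per member library, limits genes of few CPM. On simulated counts with 200 of 13751 genes changed by a fold of 2, edgeR recovered 195 with 10 other calls for 24 animals, 86 with 2 for 4 animals, and for the dose difference 118 with 7. Calls in the simulation used the adjusted p without the fold limit. The simulated counts held no difference by library number or GC content, so the other calls do not measure the error among the genes called at Day 30. Alternatives were DESeq2 1.42.0, TMM scaling, other filters (none, or at least 10 counts), no block, library number as covariate, a fit over all samples, S0 libraries only, the log2 values, each animal left out, and, added after the data were seen, each sex alone, a GC and length offset for other comparisons, and Day 40 without B2007.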

Additional observations from a re-analysis of the deposited data

Results flagged for a closer look

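Among the 4 animals with S0 libraries, 1 animal lay far from the other 3 for 3 of the 155 gene and group combinations inspected, where chance flags about 1 in 20, and 2 of these are given here. SKAP1 changed by -0.61 on the log2 scale in B2504, against -0.278 to -0.247 in the others. NUSAP1 changed by 0.041 in B2503, against 1.572 to 1.881.

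The Day 30 change differed between males and females for ALKBH7 (male minus female -1.484), EIF4EBP1 (-1.21), TIMM13 (-1.164) and MRPS12 (-0.955), each with an adjusted p of 0.0282 by the interaction term of edgeR. With GC and length as an offset no gene passed for this difference. All 12 males had a value below 0 for ALKBH7, as did 4 of 12 females, and for EIF4EBP1 9 males and 0 females did. Within the 10.7 Gy animals the change of LOC100427218 differed between S0 and numbered controls by -1.899. DESeq2 called 519 genes for the sex difference and 665 for the library difference.

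The 4 Day 30 libraries of animals without a control entered only the fit over all samples and the unpaired fit of S0 libraries. In these 4 libraries the lowest level of SLC6A9 was 39.49 CPM, and the highest of the 24 controls was 37.9 CPM. Of the 24 genes with the largest named rises and falls this was the only one outside the control range in all 4 libraries.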

How the results depend on the processing

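Counts are given as the percent of tested genes called. The Day 30 value of 5.90% stayed within 1.5 times as a count under TMM scaling, DESeq2, other filters, the log2 values, each dose alone, each sex alone, a GC and length offset, and leaving out each animal (5.54% to 6.28%). It was 3.88% in the fit over all samples, 1.41% with library number as covariate and 3.04% with S0 libraries without pairing. The first and the last of these fits also held the 4 Day 30 libraries of animals without a control. Without the replicate block it was 5.83%, the S0 comparison went from 6.39% to 0.00727%, Day 21 from 6.36% to 5.61% and Day 40 from 4.96% to 3.54%. The S0 value was 8.34% without a filter and 1.42% to 22.1% without 1 animal, and 0.08% of genes were called against Day 21 in S0 libraries. The sex difference gave 3.77% with DESeq2, 0.0811% without a filter and 0% with the offset, and the library difference 4.84%, 0.472% and 0.0654%. The causes were not tested.

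Direction turned for 8 named genes, in settings that use S0 libraries or model the library number. With the library number as covariate the values were CD79B 0.008, AQP3 -0.027, HBA 1.095, HBB 1.387 and RPL10A 0.337. In the 4 S0 animals they were CD79B 0.009, AQP3 -0.028, HBA 1.085, HBB 1.384, RPL10A 0.338 and RPL17 2.039. With S0 libraries unpaired they were MS4A2 0.099, HBA 1.645, HBB 1.436 and FBP1 0.07, and over all samples HBB 0.102 and RPL10A 0.045. Besides these reversals, 62 named genes were weaker and 46 the same with the library number as covariate. In the 4 S0 animals 33 were weaker and 73 the same. With S0 libraries unpaired 64 were weaker and 45 the same, and over all samples 26 were weaker and 86 the same. Of 83 called named genes 6 lost the call without 1 animal.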
